A study of Mus musculus with 3 samples.

Results

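The Iroquois genes are 6 homeobox genes that lie in the mouse genome as the cluster Irx1-Irx2-Irx4 on chromosome 13 and the cluster Irx3-Irx5-Irx6 on chromosome 8. Their chromatin was followed by taking every peak of accessible chromatin within 100 kb of one of the 6 genes. There were 129 such peaks among the 190443 of the E12.5 library, 56 among the 102459 of E14.5 and 120 among the 213613 of E16.5. Merged over the stages they gave 177 intervals of 266531 in the genome, 79 around Irx1-Irx2-Irx4 and 98 around Irx3-Irx5-Irx6. Peaks were taken by their position.

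Iroquois proteins are transcription factors of the TALE homeodomain class, which bind short DNA sites and pattern many organs. Irx3 and Irx5 act together in early limb patterning and in the heart, Irx4 is known for its role in the cardiac ventricle, and Irx6 has been studied in the retina. Within each cluster the genes lie far apart, and distal enhancers shared by neighbouring members are a known feature of these loci.

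The nuclei came from forelimb cells carrying tdTomato, sorted from embryos with Hic1 CreERT2 on both alleles and a Rosa26 LSL-tdTomato reporter on both alleles, on a C57BL/6J background. Tamoxifen was given to the dams by gavage at embryonic day 10, so the label marks cells that expressed Hic1 around that time and their descendants. Cells positive for markers of blood and endothelium were left out of the sort. Stages were E12.5, E14.5 and E16.5, and wherever 3 values follow each other they are in that order. Single-nucleus ATAC-seq, which counts transposase cuts in open chromatin, was run on 8294, 20023 and 14048 nuclei, with 1 library of pooled forelimbs per stage. At E16.5 the tissue was the segment around the elbow in place of the whole forelimb, and the digestion enzymes differed between E12.5 and the later stages. Headers of the deposited data name Cell Ranger ATAC 1.0.1 for E12.5 and E14.5 and 1.2.0 for E16.5. Stage, dissection, digestion, software version and library therefore cannot be told apart. There is no replicate, and every interval given in brackets is a 95% interval for counting error only.

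The libraries held 87048167, 204289151 and 413425059 counts. A level is given in CPM, the cut-site count of an interval divided by the library's total over autosomal intervals with a peak in every library and multiplied by 1000000. E14.5 stood apart: promoters took 58.7% of those counts, against 50.8% in the E12.5 library and 49.96% in that of E16.5. Its peaks were called narrower, with an Iroquois median width of 813 bp, against 1298 and 1295 bp in the other libraries. Between 151 and 401 barcodes were found in both members of a pair of libraries, which is 1.82% to 2.85% of the smaller library. With nuclei thinned to 1309 fragments each, as described below, 3 or more of 6 epithelial marker loci were open in 5, 3 and 5 nuclei. At that depth 3 or more fibrogenic marker loci were open in only 54 nuclei at E14.5 and 70 at E16.5. The low epithelial counts therefore do not show that epithelial nuclei were few. The paper filtered small clusters of contaminating epithelial cells from its E16.5 single-cell RNA data.

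Distal sequences that the results turn on are given as the 300 bases at the centre of the interval, from the RefSeq GRCm38.p6 genome (mm10). Each interval is named by its nearest Iroquois gene and its distance in kb from that gene's start, with + for downstream and - for upstream. Capitals mark matches to 4 motifs searched on both strands. These were the Iroquois site ACANNTGT, the AP-1 site TGANTCA, the Pbx-Hox site TGATTNAT and the E-box CANNTG, which is also the core of the Iroquois site. Irx6-45.1 was the interval open more often with cartilage loci in every library, shown from chr8:92629066-92629365 on the plus strand, and its only match was 1 E-box.
Irx6-45.1: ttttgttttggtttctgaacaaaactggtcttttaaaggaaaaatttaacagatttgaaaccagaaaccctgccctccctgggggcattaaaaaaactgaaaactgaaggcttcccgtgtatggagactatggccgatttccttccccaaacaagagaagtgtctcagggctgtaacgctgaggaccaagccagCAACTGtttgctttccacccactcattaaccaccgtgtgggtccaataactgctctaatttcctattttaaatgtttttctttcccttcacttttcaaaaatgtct
Irx3+21.2 was a rise with peaks at matched position in every library, shown from chr8:91780692-91780991 on the plus strand, with 1 AP-1 site and 3 E-boxes.
Irx3+21.2: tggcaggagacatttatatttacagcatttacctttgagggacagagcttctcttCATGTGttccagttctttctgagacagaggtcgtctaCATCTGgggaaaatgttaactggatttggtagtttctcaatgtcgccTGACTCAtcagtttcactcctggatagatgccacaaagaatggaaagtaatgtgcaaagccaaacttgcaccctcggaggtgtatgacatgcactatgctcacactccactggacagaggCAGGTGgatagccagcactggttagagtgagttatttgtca
Irx2-56.8 was the largest fall in the chromosome 13 cluster among intervals with at least 100 counts in each library, shown from chr13:72571851-72572150 on the plus strand, with 1 E-box.
Irx2-56.8: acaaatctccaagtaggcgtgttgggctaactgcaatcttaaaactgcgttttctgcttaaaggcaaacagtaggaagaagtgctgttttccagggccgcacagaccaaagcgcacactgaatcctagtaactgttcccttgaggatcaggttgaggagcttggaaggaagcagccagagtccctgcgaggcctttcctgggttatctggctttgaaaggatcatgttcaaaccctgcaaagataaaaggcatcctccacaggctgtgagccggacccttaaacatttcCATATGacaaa
The 250 bases before the RefSeq start of Irx4, the gene whose promoter fell more than 2-fold, lie at chr13:73260247-73260496 on the plus strand and held none of the 4 motifs.
Irx4 promoter: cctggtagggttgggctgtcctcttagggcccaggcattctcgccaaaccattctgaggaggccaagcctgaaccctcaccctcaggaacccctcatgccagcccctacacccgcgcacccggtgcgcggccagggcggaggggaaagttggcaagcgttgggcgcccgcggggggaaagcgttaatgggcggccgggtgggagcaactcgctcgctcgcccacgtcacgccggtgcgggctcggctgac

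Over the central 300 bases of the 39 intervals with a peak in every library, the Iroquois site stood in 4 (10.3%), against 11.8% of all such intervals, and the AP-1 site in 2 (5.13%), against 10.8%. The Pbx-Hox site stood in 2 (5.13%), against 4.43%, and the E-box in 31 (79.5%), against 80.4%. The median ratio of observed to expected CpG was 0.433, against 0.275 over all intervals. It was 0.379 against 0.239 outside promoters and 0.507 against 0.632 in promoters, where the Iroquois intervals were the lower. A match describes the letters only.

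Of the 177 Iroquois intervals, 53 had a peak at E12.5 only (29.9%, against 19.5% over the autosomes), 51 at E16.5 only (28.8%, against 27.4%) and 3 at E14.5 only (1.69%, against 0.257%). A further 26 were called at E12.5 and E16.5 but not at E14.5 (14.7%, against 17.2%), where peaks were fewer and narrower. The 39 intervals called in every library were 22.0% of the 177, against 31.8% over the autosomes, and the stages are compared over these 39. They were broad: 5 of 39 (12.8%) were at least 5 kb wide, against 1.93% of all such intervals. Among the intervals called in a single library, chosen here after their values were seen, the highest was Irx2+82.3, at chr13:72710003-72712329, with 8.16 CPM (7.73 to 8.60) at E16.5. The highest at E12.5 was Irx4+86.1, with 4.24 CPM. Counts are held per called peak of a library, so such an interval has no level in the others here.

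In CPM, the promoters of Irx1, Irx2, Irx3 and Irx5 were higher at both later stages than at E12.5, by small amounts, whereas that of Irx4 was more than 2-fold lower at E16.5. Irx5 was the most open promoter interval, at 104, 129 and 124 CPM. It spans 16336 bp and also holds the start of the noncoding gene Crnde, so its level belongs to both. Irx2 followed with 42.5, 62.5 and 53.1 CPM. Per kb of interval these promoters were much closer, since Irx5 read 7.59 CPM per kb at E16.5, Irx2 8.38 and Irx3 7.94. The Irx3 promoter interval held 41.5, 50.5 and 48.5 CPM. That of Irx1, a gene used as a marker of dermal fibroblasts, held 18.7 (17.3 to 20.1), 31.2 (30.1 to 32.3) and 22.8 CPM (22.1 to 23.5). From E12.5 to E16.5 the log2 ratio was 0.29 for Irx1, 0.32 for Irx2, 0.23 for Irx3 and 0.25 for Irx5, and none of these came near 2-fold. Per kb of called width Irx5 was lower at E16.5 (7.585 CPM) than at E12.5 (8.856), and so was Irx2 (8.381 against 8.508). The highest value at E14.5 for each of these genes stands beside the higher promoter share of that library. With promoter and other intervals scaled separately, the Irx3 and Irx5 promoters were instead higher at E16.5 than at E14.5, by log2 ratios of 0.17 and 0.18, and Irx2 had -0.002.

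The Irx4 promoter interval was lowest at E16.5. It held 12.5 (11.4 to 13.7), 9.37 (8.80 to 9.98) and 5.05 CPM (4.72 to 5.40), and the intervals of the stages do not overlap. The log2 ratio of E16.5 to E12.5 was -1.31 (-1.47 to -1.14), and it was -1.29 per kb of called width. On that scale it read 8.672, 8.637 and 3.535 CPM per kb, a log2 ratio of -0.006 at the first step. Its peak lay at a matched position in all 3 libraries, meaning that 1 peak of each overlapped the others by at least 50% of both. The Irx6 promoter, the other that was lower at E16.5 than at E12.5, held 17.8, 20.1 and 15.5 CPM, with a log2 ratio of E16.5 to E12.5 of -0.20 (-0.32 to -0.07).

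**Figure D1:**
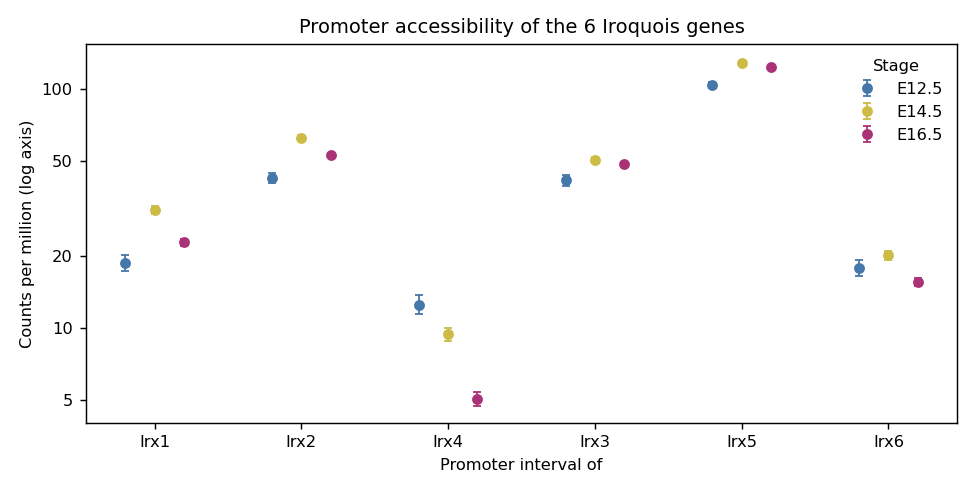
CPM in the promoter interval of each Iroquois gene, on a log axis, by stage. Points are the single library of a stage and bars are 95% intervals for counting error. The Irx4 promoter falls from 12.5 to 5.05 CPM while those of Irx1, Irx2, Irx3 and Irx5 are higher in CPM at both later stages than at E12.5, which per kb of called width does not hold for Irx2 and Irx5 at E16.5.

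Over gene bodies with 2 kb upstream, 0 of 6 Iroquois genes passed 2-fold at any step. The background was 0.816% of 15939 protein-coding genes higher and 2.55% lower from E12.5 to E14.5, 2.57% and 0.753% from E14.5 to E16.5, and 2.25% and 2.94% from E12.5 to E16.5. The largest fall from E12.5 to E16.5 was in Irx4, with a log2 ratio of -0.63, and the largest rise in Irx2, with 0.32. The median of the 6 was 0.01 and that of all genes 0.00.

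In CPM the cluster totals hardly moved, while windows and intervals within each cluster rose and fell. The windows of 100 kb around Irx1, Irx2 and Irx4 summed to 224, 236 and 239 CPM. Those around Irx3, Irx5 and Irx6 summed to 303, 314 and 310 CPM. The log2 ratio of E16.5 to E12.5 was 0.09 for the first cluster and 0.03 for the second, and its sign changed in each under some alternative counts. Relative to called width the totals did move, with E14.5 the highest. The first cluster then read 6.48, 10.85 and 5.585 CPM per kb and the second 7.274, 10.49 and 6.456. E14.5 had the narrowest calls in 35 of the 39 intervals and in 81.5% of all intervals, so this scale lifts E14.5 across the genome. On it, 13.2% of all intervals rose at least 2-fold from E12.5 to E14.5 and 1.04% fell. The E14.5 values per called width are therefore not read as a trait of the Iroquois loci. In the split below, a promoter interval is one at the promoter of any gene, so more is counted than the promoter intervals of the Iroquois genes. The first cluster also counts Irx1+5.1, Irx4+10.9, Irx4+67.9 and Irx4+70.7, and the second also counts Irx3+88.5. Inside the second cluster, promoter intervals held 178, 213 and 203 CPM and the other intervals 125, 101 and 107 CPM. Per kb of called width both classes went the same way, with 8.07, 12.2 and 7.35 CPM per kb in promoters and 6.38, 8.11 and 5.25 outside them. In the first cluster promoter intervals held 127, 164 and 141 CPM, and the intervals outside promoters held 96.6, 71.7 and 98.1 CPM. Relative to called width the latter read 5.66, 8.27 and 4.455 CPM per kb, so E14.5 was then the highest in place of the lowest.

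In CPM single windows went different ways. The window of Irx1 rose from 46.6 to 49.5 and 57.1 CPM, and that of Irx3 from 103.1 to 104.2 and 116.7 CPM. Per kb of called width the Irx1 window was lower at E16.5 (4.334 CPM) than at E12.5 (5.239). Without promoter intervals the Irx1 window did not rise steadily, with 6.80, 0.87 and 12.45 CPM. Relative to called width that part read 3.251, 3.742 and 2.605 CPM per kb. The window of Irx6 fell from 60.8 to 53.7 and 52.2 CPM. The window of Irx4 fell from 92.8 to 84.6 and 82.7 CPM, and it also holds the promoters of Ndufs6 and Mrpl36, which encode mitochondrial proteins. Without those promoters it held 66.2, 45.4 and 50.8 CPM. Per kb of called width, a scale that lifts E14.5 through its narrow calls, the windows of Irx3, Irx4 and Irx6 were all highest at E14.5. Irx3 read 6.1, 8.92 and 6.31 CPM per kb, Irx4 7.397, 11.2 and 5.62, and Irx6 7.298, 8.3 and 5.66. Around Irx5 the promoter interval and the rest parted. The window as a whole held 139, 156 and 141 CPM, but without its promoter interval it fell from 34.9 to 27.2 and 16.9 CPM, a log2 ratio of E16.5 to E12.5 of -1.04 (-1.14 to -0.95). Relative to called width the same intervals read 7.502, 11.67 and 4.324 CPM per kb, so the value at E14.5 was then the highest, and the difference between E12.5 and E16.5 was under 2-fold. Irx5-22.3 went from 9.84 to 0.13 and 1.49 CPM, Irx5+103.0 from 16.6 to 18.3 and 10.0 CPM, and the other, Irx5-69.9, lay upstream of the gene.

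The intervals were then counted one by one against those of the genome. From E12.5 to E16.5, 8 of 39 intervals rose at least 2-fold, against a background of 18.4% of 82714 intervals, and 9 of 39 fell, against 16.4%. The cluster Irx3-Irx5-Irx6 held 6 of the 8 rises and 6 of the 9 falls among its 21 intervals. From E12.5 to E14.5, 5 of 39 rose (background 10.5%) and 11 of 39 fell (background 20.5%). From E14.5 to E16.5, 7 of 39 rose (background 19.8%) and 0 of 39 fell (background 6.91%). At a lower threshold of 1.5-fold, 8 rose and 13 fell from E12.5 to E16.5 (background 26.4% and 25.8%), 8 rose and 13 fell over the first step (17.6% and 33.7%), and 10 rose and 5 fell over the second (32.3% and 14.1%). Both steps that touch E14.5 set narrow peaks against wide ones: per kb of called width 1 of 39 fell from E12.5 to E14.5 (1.04% of all intervals) and 0 of 39 rose from E14.5 to E16.5 (0.683%). Of the 14 intervals with matched peaks, 2 rose (8.57% of all matched intervals) and 4 fell (12.3%) from E12.5 to E16.5.

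Both matched rises lay downstream of Irx3, a member with a role in early limb patterning. Irx3+51.5, which is intergenic, held 5.73 (4.996 to 6.54), 15.8 (15.03 to 16.6) and 21.3 CPM (20.6 to 22.0). The log2 ratio of E16.5 to E12.5 was 1.90 (1.7 to 2.1), and 1.59 per kb of called width. Irx3+21.2, at chr8:91780410-91781272, held 1.38, 2.72 and 4.49 CPM, a log2 ratio of 1.70. Per kb of called width that ratio was 0.73. In CPM both were highest at E16.5, but relative to called width Irx3+21.2 had a log2 ratio of E16.5 to E14.5 of -0.11.

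The 4 matched falls were the Irx4 promoter, Irx4-100.3, Irx6+87.9 and Irx6-45.1. Irx6+87.9 held 7.47, 3.37 and 2.30 CPM, a log2 ratio of -1.70. Irx6-45.1, intergenic at chr8:92628585-92629846, held 11.5, 6.75 and 5.60 CPM, a log2 ratio of -1.04, and was not among the intervals the naming rule picks. Its values were seen before it was singled out. Among intervals without matched peaks, Irx2-56.8, at chr13:72571634-72572367, held 3.74, 1.53 and 0.84 CPM. Its log2 ratio of E16.5 to E12.5 was -2.16, and -1.07 per kb of called width. Irx6-55.8 held 4.88, 1.87 and 1.91 CPM. Irx2+86.2 was lowest at E14.5, with 2.74, 1.22 and 3.66 CPM.

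**Figure D2:**
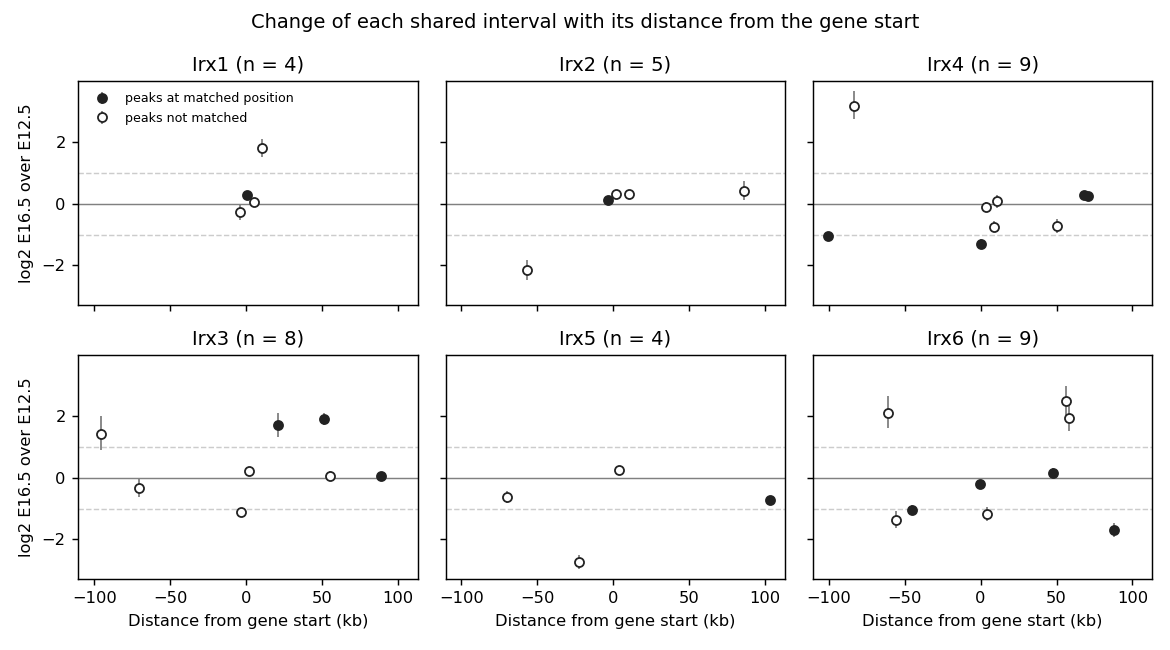
Log2 ratio of E16.5 to E12.5 of the 39 Iroquois intervals with a peak in every library, by their distance in kb from the start of the nearest Iroquois gene. Filled points had peaks at matched position, open points did not, bars are 95% intervals for counting error and dashed lines mark 2-fold. The 2 filled points above the upper line both belong to Irx3.

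Whether an Iroquois element opened in particular nuclei was read against marker loci grouped as panels. Every nucleus was thinned to 1309 fragments, which kept 6221, 19521 and 13834 nuclei, and a locus was called open in a nucleus with at least 1 fragment. Nuclei with 3 or more chondrogenic loci open (11 loci such as Col2a1 and Acan, which encode cartilage matrix proteins, and Sox5, Sox6 and Sox9, which encode cartilage transcription factors) were set beside nuclei with 0 open. The same was done with 10 dermal fibrogenic loci such as Twist2, Axin2 and Lef1. Open marker loci group the nuclei and do not name a cell type.

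Irx6-45.1 was open in a higher share of nuclei with open chondrogenic loci in all 3 libraries. At E12.5 it was open in 2.86% of 245 nuclei with 3 or more such loci (1.16 to 5.798%) and in 0.65% of 2306 nuclei with 0. At E14.5 the shares were 2.49% of 803 nuclei and 0.50% of 8322. At E16.5 they were 6.07% of 478 nuclei (4.10 to 8.60%) and 0.30% of 7678. The ratios were 4.39, 4.94 and 20.3, above those of 99.2%, 99.4% and 99.8% of intervals. The E16.5 ratio was 43.7 with another draw of the fragments, the E12.5 ratio was then 1.86, and the E14.5 ratio was 2.88 without nuclei of high promoter share. The E12.5 share rests on 7 open nuclei. Irx6-45.1 was 1 of 29 Iroquois intervals whose exact intervals of the shares did not overlap in every library in this direction, against a background of 0.0293% of 61415 intervals. The interval was picked out from these values, so they are a description with no test.

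The same reading with nuclei thinned to 3000 fragments, which keeps fewer nuclei but reads more of each, gave ratios of 3.18, 2.52 and 26.7. There 1 of 30 Iroquois intervals stood apart in every library, again Irx6-45.1, against a background of 0.0886%. At E16.5 it was open in 7.38% of nuclei with 3 or more chondrogenic loci (6.19 to 8.71%) and in 0.28% of those with 0. With 3 or more fibrogenic loci open it was open in 0.34% of 590 nuclei, against 2.37% with 0, and with 3 or more tenogenic loci in 3.02% of 596, against 1.29%. Intervals do not overlap in either pair, so Irx6-45.1 was also set apart by tenogenic loci. That ratio, 2.34, was above that of 95.3% of intervals. At 1309 fragments Irx6-45.1 was open in 0.0% of 65 nuclei with 3 or more tenogenic loci at E16.5 (0.0 to 5.52%), against 0.70% with 0. So few nuclei cannot show a difference at that depth. The dermal fibrogenic panel gave 1.49% and 1.71% at E16.5, 1.501% and 2.19% at E14.5, and 2.42% and 1.18% at E12.5. The intervals overlap in each pair, although the E12.5 ratio of 2.06 was above that of 92.8% of intervals.

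At E16.5, 8 of 11 single chondrogenic genes were open in a higher share of nuclei with Irx6-45.1 open, with intervals that did not overlap, against a background of 3.1% of 15008 genes on other chromosomes. These genes form the panel by which Irx6-45.1 was singled out, so the counts restate that reading gene by gene. The single genes were read in nuclei thinned to 1309 fragments. Of the 105 nuclei with Irx6-45.1 open, 34.3% had Col2a1 open, against 9.62% of the rest, and 16.2% had Col9a1 open, against 3.62%. Acan was open in 9.52% against 2.16%, and Sox6 in 35.2% against 15.4%. Of the other 3, Sox9 was open in 6.67% against 6.72%, Snorc in 0.0% against 0.31% and Matn1 in 2.86% against 1.03%. The intervals did not overlap for 3 of 11 at E14.5 (Col2a1, Sox5 and Sox6, background 1.22%) and for 2 of 11 at E12.5 (Sox5 and Sox6, background 1.18%). Of the nuclei with this interval open, 10.1%, 13.7% and 27.6% had 3 or more chondrogenic loci open at 1309 fragments. At 3000 fragments these shares were 37.37%, 38.98% and 63.05%, so they depend on depth. Irx6-45.1 was open in 1.11%, 0.75% and 0.76% of all nuclei thinned to 1309 fragments. In unthinned nuclei the shares were 3.91%, 3.12% and 5.35%, which move with depth.

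The Irx6 promoter did not open together with Irx6-45.1 beyond counting error: of nuclei with the promoter interval open, 1.64%, 0.71% and 0.50% had Irx6-45.1 open, against 1.099%, 0.75% and 0.76% of the rest. These are 2, 3 and 1 nuclei, so a difference was not detectable at this depth of 1309 fragments.

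**Figure D3:**
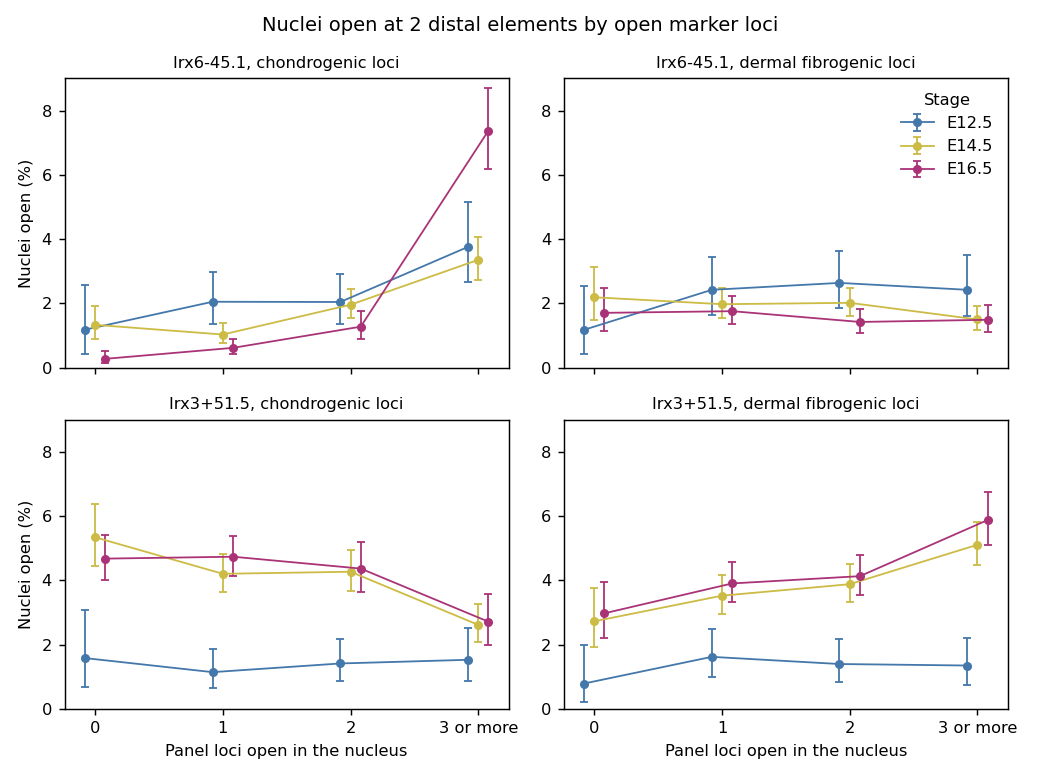
Percent of nuclei with Irx6-45.1 (top) or Irx3+51.5 (bottom) open, by the number of chondrogenic or dermal fibrogenic loci open in the nucleus, with nuclei thinned to 3000 fragments. Points are nuclei of 1 library and bars are 95% exact intervals. Irx6-45.1 reaches 7.38% at E16.5 with 3 or more chondrogenic loci, and Irx3+51.5 is higher with dermal loci and lower with chondrogenic loci at E14.5 and E16.5.

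Irx3+51.5 went the other way at the later stages. With nuclei thinned to 3000 fragments it was open in 5.10% of nuclei with 3 or more dermal fibrogenic loci at E14.5 (4.47 to 5.801%) and in 2.72% of those with 0, a ratio of 1.88. At E16.5 the shares were 5.87% (5.09 to 6.73%) and 2.97%, a ratio of 1.98. At E12.5 they were 1.35% and 0.79%, with intervals that overlap. With chondrogenic loci it was open in 2.61% against 5.34% at E14.5 and in 2.71% against 4.67% at E16.5. Thinned to 1309 fragments, the chondrogenic shares at E16.5 overlap, at 0.84% (0.23 to 2.13%) against 2.11% (1.8 to 2.46%). Those at E14.5 do not, at 1.12% against 2.535%. At the lighter depth of 1309 fragments the dermal ratios were 0.66, 1.42 and 2.14, and the shares overlap at E12.5 and E14.5. With another draw the E12.5 ratio was 0.0 and the E16.5 ratio 1.32, and the E14.5 ratio was 0.82 without nuclei of high promoter share. Nuclei with a promoter share above 52.1% were 5.0%, 64.1% and 6.33% of the libraries. The cut was set to leave 5.0% of E12.5 nuclei above it, so the E12.5 share is fixed by that choice.

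Single genes were again read in nuclei thinned to 1309 fragments. At E16.5, 16.3% of nuclei with Irx3+51.5 open had Axin2 open, against 11.2% of the rest, and 16.3% had Twist2 open, against 10.97%. These were the 2 of 10 dermal fibrogenic genes whose intervals did not overlap (background 1.65% of genes higher), and Crabp1 was open in 1.89% against 3.40%. The dermal fibrogenic genes form the panel by which Irx3+51.5 was read above, so this count restates that reading gene by gene. Scx, a tendon transcription factor, was open in 3.79% against 9.43%, and Col2a1 in 4.17% against 9.91%. Each was the only gene of its list whose intervals did not overlap, of 8 tenogenic and 11 chondrogenic genes (background 1.42% lower). Of 8 fibrogenic genes Postn was lower, in 1.89% against 4.78%. At E14.5 Axin2 was the only 1 of 10 dermal fibrogenic genes set apart (17.4% against 13.2%), and the fibrogenic gene Dpt was higher by a larger ratio, in 2.99% against 1.14% (background 1.62%). Scx and Htra3, of the tenogenic list, were lower at E14.5 (background 1.6%). The share of thinned nuclei with Irx3+51.5 open was 0.58%, 2.06% and 1.91% (unthinned 2.24%, 6.80% and 17.5%). So the rise after E12.5 appears in shares as in CPM, whereas the higher CPM at E16.5 than at E14.5 does not, and no order is read between those stages from the shares.

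Other Iroquois intervals also differed between nuclei by 1 panel or another. At the depth of 3000 fragments, 3 of 36 were open more often with dermal fibrogenic loci at E14.5 (background 1.01%), namely Irx3+51.5, the Irx3 promoter Irx3+1.8 and the Irx5 promoter Irx5+3.4. At E16.5, 3 of 39 were (background 2.77%), namely Irx3+51.5, Irx3+88.5 and Irx1+10.1, and at E12.5 0 of 33 (background 0.226%). Of these, Irx3+88.5 is a promoter interval of another gene. The Irx3 promoter was open in 13.9% against 10.5% at E14.5, and the Irx5 promoter in 30.5% against 25.2%. For these promoters the ratios, 1.32 and 1.21, were above those of only 82.6% and 76.2% of intervals. At 1309 fragments the intervals of both overlap, at 7.01% against 5.27% for Irx3 and 15.2% against 12.8% for Irx5, while at E12.5 the Irx5 promoter was set apart at that depth only, at 13.3% against 8.19%. Irx1+10.1 was open in 2.98% against 1.33% at E16.5. With chondrogenic loci 3 of 39 were higher at E16.5 (background 8.24%), namely Irx6-45.1, the Irx6 promoter Irx6-0.2 and Irx4+70.7, and 1 each at E12.5 (of 33, background 0.392%) and E14.5 (of 36, background 3.92%). Irx4+70.7 is a promoter interval of Ndufs6 or Mrpl36, not of an Iroquois gene. The Irx6 promoter was open in 5.65% against 3.10%. The count of 3 of 39 with chondrogenic loci at E16.5 is below the background. In the lower direction, 2 of 39 intervals were called with chondrogenic loci at E16.5, below the 7.46% of all intervals, namely Irx3+51.5 and Irx2+86.2 (0.29% against 1.05%). With fibrogenic loci the Irx5 promoter was lower at E14.5 (23.1% against 29.8%) and at E16.5 (20.3% against 25.3%). Its ratios, 0.775 and 0.803, were above those of 31.3% and 32.0% of intervals, so many intervals had lower ones. With Irx4+8.6 the Irx5 promoter made 2 of 36 lower at E14.5 (0.501% of all intervals), and with Irx6-45.1 2 of 39 at E16.5 (1.73%). With tenogenic loci 3 of 36 were lower at E14.5 (0.689% of all intervals), namely Irx1+5.1, the Irx4 promoter Irx4+0.3 and Irx5+103.0, and Irx1+10.1 and Irx2+10.0 were lower at E16.5 (1.44% of all intervals). In the higher direction 1 of 39 was called with tenogenic loci at E16.5, Irx6-45.1, against 4.29% of all intervals.

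The windows were read against the same panels, with nuclei thinned to 1309 fragments. The cluster Irx1-Irx2-Irx4, which holds the dermal marker Irx1, was open in 18.4% of nuclei with 0 dermal fibrogenic loci and 21.3% with 3 or more at E12.5. The pairs of shares were 24.98% and 25.6% at E14.5, and 20.9% and 20.5% at E16.5. These shares overlap at every stage. The Irx1 window alone was open in 4.99% (4.43 to 5.61%) and 5.58% (3.997 to 7.55%) at E16.5, which also overlap, so no difference by dermal loci was detectable in the Irx1 window at this depth. The cluster Irx3-Irx5-Irx6 was open in 29.2% (28.1 to 30.3%) and 33.0% (30.3 to 35.7%) by dermal loci at E14.5, which do not overlap. By chondrogenic loci this cluster changed direction at this depth, from 25.5% and 14.3% (10.2 to 19.3%) at E12.5 to 26.2% and 32.4% (28.2 to 36.8%) at E16.5. At E12.5 the Irx3 window was open in 9.84% of nuclei with 0 chondrogenic loci and in 3.67% (1.69 to 6.86%) with 3 or more. The Irx6 window at E16.5 was open in 5.03% and 11.1% (8.42 to 14.2%), and it holds Irx6-45.1. The lower shares at E12.5 did not appear in the Irx3 and Irx5 promoter intervals at 3000 fragments. There Irx3+1.8 was open in 7.69% with 0 chondrogenic loci and 9.15% with 3 or more, and Irx5+3.4 in 18.7% and 18.8%. With 1309 fragments the pairs were 3.82% and 0.82%, and 9.24% and 5.71%. Whether the windows change direction at the greater depth was not tested. Set beside the gene bodies of 14501 to 14719 genes, the ratios of the cluster Irx3-Irx5-Irx6 lay inside the 5th to 95th percentile: 1.13 by dermal loci at E14.5 (0.766 to 1.26), and 0.559 at E12.5 (0.454 to 1.61) and 1.24 at E16.5 (0.574 to 1.72) by chondrogenic loci. The Irx3 window at E12.5, with 0.373, lay below that range, and the Irx6 window at E16.5, with 2.21, above it. Their gene bodies, read like for like, lay at the edges of the range, Irx3 at 0.454 and Irx6 at 1.73. By dermal loci the Irx6 body lay above the 95th percentile at E14.5 (1.38 against 1.26) and at E16.5 (1.48 against 1.38). So did the Irx5 body at E12.5 (1.63 against 1.6), while the other Iroquois gene bodies lay inside the range by dermal loci.

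Co-opening asks whether nuclei with 1 window open more often have its neighbour open. Over the 3 libraries the ratio of these shares lay between 0.99 and 1.47 for the 6 pairs within a cluster. Intervals of these ratios take the share among the rest as fixed, so they are narrower than full counting error. Irx3 with Irx5, 556 kb apart, and Irx1 with Irx4, 1297 kb apart, were the pairs whose intervals lay above 1 at E12.5 and at E14.5. The 2 shares of Irx1 and Irx4 themselves overlap at both stages, at 8.72 to 16.4% against 7.66 to 9.08% at E12.5. Of nuclei with the Irx3 window open, 17.1% had the Irx5 window open at E12.5, against 11.8% of the rest, a ratio of 1.45 (1.19 to 1.73). At E14.5 the ratio was 1.25 (1.15 to 1.36) and at E16.5 1.14 (1.0 to 1.29). Irx1 and Irx4 gave 1.46 (1.04 to 1.96), 1.19 (1.01 to 1.4) and 1.03. Their correlation (phi) lay above that of 32.1% and 37.0% of other pairs of windows at the first 2 stages. Over gene bodies the ratios of Irx1 and Irx4 were 2.29 (1.35 to 3.59), 1.48 (1.1 to 1.95) and 1.52 (0.92 to 2.36), with phi above that of 97.5%, 94.6% and 93.4% of other pairs. The other pairs, at most 1000 kb apart, do not reach the distance of Irx1 and Irx4. Irx1 and Irx2 gave 1.1 (0.73 to 1.56), 1.26 (1.09 to 1.44) and 1.08 (0.87 to 1.33). Irx5 and Irx6, the closest pair at 298 kb, gave 1.47 (1.17 to 1.83), 1.12 and 0.99. Over gene bodies that pair gave 2.02 (1.35 to 2.89), 1.07 and 1.01, with phi above that of 98% of other pairs at E12.5. Irx3 and Irx6 had the largest window ratio within a cluster at E16.5, 1.28 (1.05 to 1.54). Its phi lay above that of 89.2% of other pairs, and the shares overlap, at 5.71 to 8.38% against 5.05 to 5.86%.

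Other pairs of genes gave ratios of similar size. Windows of genes 200 to 1000 kb apart on chromosomes 8 and 13 had median ratios of 1.19, 1.08 and 1.03. The correlation (phi) of the Irx3 and Irx5 windows lay above that of 66.4%, 87.7% and 82.5% of those pairs. Read over gene bodies in place of windows, the Irx3 and Irx5 ratio was 1.64 (1.25 to 2.09), 1.27 (1.12 to 1.43) and 1.05 (0.86 to 1.26), with phi above that of 98.3%, 99.3% and 63.4% of gene bodies at such distances on all autosomes. At E14.5 the window ratio of Irx3 and Irx5 was 1.05 without nuclei of high promoter share. Phi was at most 0.05 for the pairs within a cluster, and in counts this sparse so weak a correlation is no finding. Between the clusters, on different chromosomes, the 9 pairs gave ratios of 0.80 to 1.13, 0.77 to 1.2 and 1.01 to 1.27. At E16.5 Irx2 and Irx5 gave 1.26 (1.11 to 1.43), with phi above that of 99.9% of other pairs between chromosomes 13 and 8, and above that of every pair within a cluster at that stage. Over gene bodies Irx2 and Irx5 gave 1.34 (1.12 to 1.58), and Irx2 and Irx6 2.24 (1.49 to 3.21), the latter with a phi of 0.04. Doublets were not removed here, and they would hold the fragments of more than 1 nucleus.

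**Figure D4:**
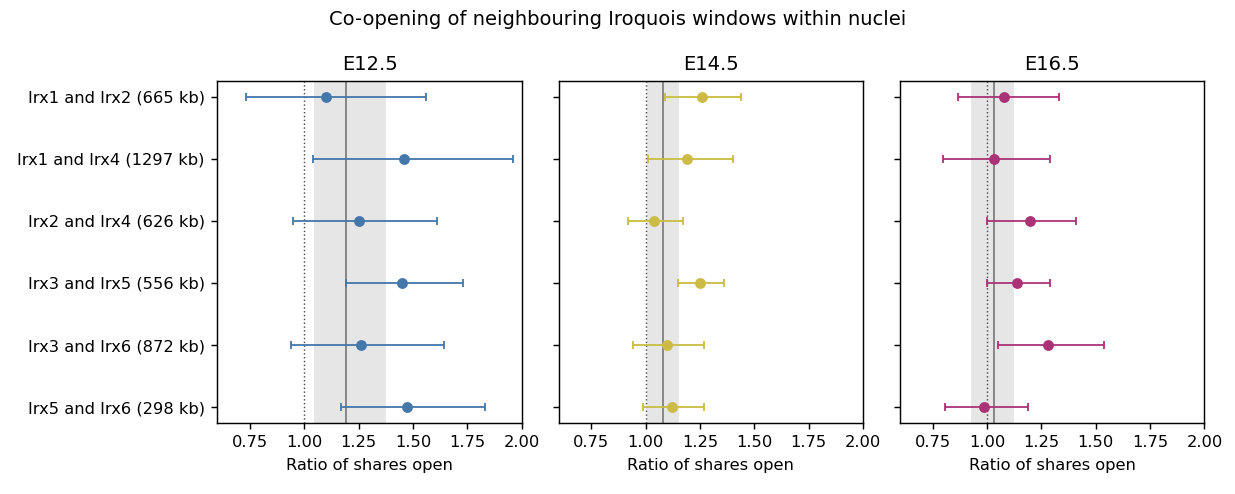
Ratio of the share of nuclei with the second window open among nuclei with the first open to the share among the rest, for the 6 pairs of Iroquois windows within a cluster. Bars are 95% intervals for counting error of the first share, with the share among the rest taken as fixed. The grey band spans the 5th to 95th percentile of other gene pairs 200 to 1000 kb apart and its line their median. The Irx3 and Irx5 ratio falls from 1.45 at E12.5 to 1.14 at E16.5, as does the median of other pairs.

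Genes on other chromosomes whose opening was most like that of a cluster were ranked by the smaller of the E14.5 and E16.5 phi. For Irx1-Irx2-Irx4 the first 5 of 13621 genes were Ahr, Hoxc5, Esrp1, Gm10801 and Tfap2b, with phi from 0.02 to 0.03 at both stages. For Irx3-Irx5-Irx6 Lef1, Myo3b, Erf and Pax6 were among the first 5 of 13408. Lef1, a Wnt effector, had phi of 0.01, 0.03 and 0.03. For Irx6-45.1 alone the first 5 were Fam84b, Unc5c, Foxk1, Rpa2 and Bmp5. Col2a1 was the 7th. All these values are weak and are given as a description.

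The other TALE homeobox genes, from a list of 10, are given beside them: 0 of 10 passed 2-fold from E12.5 to E16.5 (background 2.25% higher and 2.94% lower), with a median log2 ratio of -0.08. The largest rise was in Meis3 (0.32) and the largest fall in Pbx4 (-0.75). Of 10 dermal fibrogenic genes 0 passed 2-fold over the same interval of time, with a median of 0.08, the largest rise in Col7a1 (0.79), an anchoring collagen of the skin, and the largest fall in Nkd2 (-0.71), an inhibitor of Wnt signalling. From E14.5 to E16.5, 1 of 10 rose past 2-fold (background 2.57%), again Col7a1, with a log2 ratio of 1.06.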

How the data were processed

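The 3 libraries were single-nucleus ATAC-seq of sorted tdTomato+ forelimb cells, grouped by the stage in the labels. The authors aligned and counted with Cell Ranger ATAC on mm10 (version 1.1.0 in the processing notes, 1.0.1 and 1.2.0 in the peak file headers) and deposited, for each library, a peak list and a matrix of counts of transposase cut sites per peak and nucleus, called on each library separately. Counts are mostly even, so a fragment was taken as 2 cut sites, rounded up. The study counted fewer nuclei than the 42365 barcodes used here, no barcode was left out of the sums and no doublet caller was run.

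Peaks overlapping by at least 1 bp were merged, and CPM, log2 ratios and exact binomial intervals on fragments were computed for intervals with a peak in every library; 216 of those without a count in some library were left out. With 1 library per stage no test was run. Genes came from GENCODE M21. A promoter interval holds any base from 1000 bp before to 100 bp after a gene start, and the promoter interval of an Iroquois gene holds its own start. Nuclei were thinned to a fixed number of fragments with a fixed seed. The ratios were checked on simulated data. Sequence came from RefSeq GRCm38.p6, whose chromosome lengths matched for 21 of 21 chromosomes; the promoter table matched 3 of 6 Iroquois genes. Some items are not reported here.

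Named intervals were each gene's promoter interval and, per cluster, the 2 strongest gains and 2 strongest losses between E12.5 and E16.5 among intervals with 100 or more counts in each library, and the widest interval. The Iroquois members and the lists were chosen with earlier results of these data known. Alternatives were other scalings, a binarised matrix, counts per called width, matched peaks, other windows, and other depths, draws or nuclei. Python 3.11.15, numpy 2.4.6, scipy 1.17.1 and pandas 2.3.3 were used.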

Additional observations from a re-analysis of the deposited data

How the results depend on the processing

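Of 396 alternative values for the Iroquois loci, 203 stayed within the counting-error interval of the reported value. A further 169 moved outside it, and 24 moved outside it with a change of direction. Other values changed direction without being among the 24, such as Irx3+51.5 by dermal loci at E14.5 without nuclei of high promoter share. No paired analysis was possible because each stage has 1 library and no replicate number. The matched-position counts, the windows without Ndufs6 and Mrpl36 and all alternatives for Irx6-45.1 and Irx3+51.5 by marker loci were chosen after seeing the data. What limits all of this is 1 library per stage, narrow calls and a high promoter share at E14.5, and counts of under 10 open nuclei behind some shares. The cause of each change below was not tested.

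For Irx1-Irx2-Irx4 the log2 ratio of E14.5 to E12.5 was 0.07 and became 0.23 with libraries scaled by the median ratio, 0.022 with classes scaled separately, 0.027 binarised, 0.74 per called width, 0.25 for matched intervals, -0.008 without nuclei of high promoter share, -0.26 over the whole span and -0.006 without Ndufs6 and Mrpl36. The ratio of E16.5 to E14.5, 0.02, became in that order -0.12 and 0.077 for the scalings, -0.96 per called width, -0.36 matched, 0.11 without high promoter share, 0.055 in windows of 50 kb, 0.083 over the span and 0.077 without Ndufs6 and Mrpl36. The ratio of E16.5 to E12.5, 0.09, became 0.03 binarised, -0.21 per called width, -0.12 matched and -0.18 over the span.

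For Irx3-Irx5-Irx6 the ratio of E14.5 to E12.5, 0.05, became 0.21 by median ratio, 0.008 by class, 0.53 per called width, 0.12 without the deepest 5% of nuclei, -0.14 without high promoter share, 0.10 in 50 kb and 0.003 over the span. The ratio of E16.5 to E14.5, -0.02, became -0.16 by median ratio, 0.032 by class, -0.22 binarised, -0.70 per called width, 0.17 without high promoter share, 0.003 in 50 kb and -0.081 over the span. The ratio of E16.5 to E12.5, 0.03, became -0.17 binarised (-0.173) and per called width (-0.172), 0.11 without the deepest nuclei, 0.10 in 50 kb and -0.078 over the span.

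Per called width also turned Irx1 from E14.5 to E16.5 to -0.96, Irx3 to -0.50, Irx4 from E12.5 to E14.5 to 0.60 and Irx6 to 0.19 (windows), Irx2+1.5 from E12.5 to E16.5 to -0.022, Irx2+86.2 to 0.45 and -0.28 at the 2 steps, Irx2-56.8 from E12.5 to E14.5 to 0.13 and Irx3+21.2 from E14.5 to E16.5 to -0.11. Scaling by class turned the Irx1 window from E12.5 to E14.5 to -0.11, the Irx6 promoter to -0.029, and the Irx3 and Irx5 promoters from E14.5 to E16.5 to 0.17 and 0.18. The median ratio turned the Irx4 window from E12.5 to E14.5 to 0.026.

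Interval counts past the fold are of 39, of 29 with at least 100 counts and of 14 matched, with the share of all such intervals in brackets. From E12.5 to E14.5 the 5 rises became 8 at 1.5-fold (17.6%), 1 with at least 100 counts (6.25%) and 1 matched (7.25%), and the 11 falls became 6 with at least 100 counts (19.1%), 1 per called width (1.04%) and 1 matched (6.04%). From E14.5 to E16.5 the 7 rises became 1 with at least 100 counts (15.6%), 0 per called width (0.683%) and 0 matched (2.8%), and the 0 falls became 5 at 1.5-fold (14.1%), 3 by median ratio (8.62%) and 6 per called width (17.3%). From E12.5 to E16.5 the 8 rises became 2 with at least 100 counts (13.2%), 2 matched (8.57%) and 1 per called width (6.56%), and the 9 falls became 5 per called width (10.4%) and 4 matched (12.3%).

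Among nuclei, Irx1 and Irx2 at E16.5 gave 1.45 with another draw, and Irx3 and Irx5 at E14.5 gave 1.05 without high promoter share. Irx6-45.1 by chondrogenic loci gave 2.52 at 3000 fragments and 2.88 without high promoter share at E14.5, and 43.7 with another draw at E16.5. Irx3+51.5 by dermal loci gave 0.0 at E12.5 and 1.32 at E16.5 with another draw, and 0.82 at E14.5 without high promoter share.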
